A study of Mus musculus with 6 samples.

Results

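The 44 genes described here encode the machinery that folds, checks and degrades proteins in the endoplasmic reticulum (ER), the compartment in which secreted and membrane proteins take their shape. They were chosen by name and sorted by role: 17 folding chaperones and their helpers, 7 disulfide isomerases and oxidases, 6 stress sensors and transcription factors, and 14 genes of ER-associated degradation (ERAD). The choice was made with earlier results of these data known. All 44 were found among the 17710 genes of the tables, 42 under the symbol asked for and 2, Selenok (formerly Selk) and Ufd1 (formerly Ufd1l), under a newer one. The data were RNA-seq of mouse cell lines kept without feeder cells. Extraembryonic endoderm (XEN) cells model the lineage that builds the endoderm of the yolk sac. They carried the ICR background and grew in RPMI1640 with 15% FBS and the additions labelled Glut and BME. Embryonic stem (ES) cells, a model of the epiblast in its pluripotent state, carried the 129/Ola background and grew on 0.1% gelatin in N2B27-2iLIF, a serum-free medium with inhibitors and the cytokine LIF. There were 3 libraries per cell type, with the letters A, B and C, and the labels do not say that these came from separate cultures, so p-values measure only the spread among the libraries, which may be technical. Cell type, strain and medium differ together between the groups and cannot be told apart.

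A protein that enters the ER is bound by the chaperone BiP, the product of Hspa5, whose cycle is driven by J-domain co-chaperones and nucleotide exchange factors. Calnexin and calreticulin hold proteins through their sugar chains, and protein disulfide isomerases, re-oxidised by Ero1 enzymes, pair their cysteines. When unfolded protein builds up, the membrane sensors encoded by Ern1, Eif2ak3 and Atf6 start the unfolded protein response: Ern1 splices the Xbp1 message, Atf6 is cut to release a transcription factor, and Eif2ak3 slows translation and favours Atf4. Proteins that do not fold are handed to ERAD, which trims their sugars, moves them through the membrane and marks them with ubiquitin for the proteasome. Cells that secrete much matrix or many hormones are known for a large ER, and endoderm of the parietal yolk sac lays down a thick basement membrane.

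The libraries held 20675311 to 22375875 expected counts. On these totals 3 counts in a library came to 0.134 to 0.145 CPM, counts scaled to a common library total. The CPM values of genes were scaled further by the TMM factors given with the processing. The labels fitted the marker genes. The summed level of Pou5f1, Nanog, Sox2 and Esrrb was 0.979 to 1.44 CPM in XEN libraries and 3395 to 3475 CPM in ES libraries, and that of Gata4, Gata6, Sox17, Sox7, Pdgfra and Dab2 was 4960.0 to 5274 CPM in XEN and 4.66 to 5.39 CPM in ES libraries. Of 6 fibroblast markers 5 were listed, with sums of 0.447 to 0.606 CPM in XEN and 2.86 to 3.43 CPM in ES libraries and with Col3a1 at 0 in ES libraries. The 6 trophoblast markers summed to 7.85 to 9.42 CPM in XEN and 83.8 to 87.1 CPM in ES libraries. Tfap2c and Eomes made up most of the ES sum, and Elf5 averaged 0.0313 CPM in XEN and 0.0145 CPM in ES cells. Cdx2, of the same list, went the other way, at 0.84 CPM in XEN and 0.148 CPM in ES cells (log2 fold change 2.47, edgeR adjusted p = 1.06e-05). The part of such cells in the results was not tested.

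Most of the ER machinery was higher in XEN cells. Of the 44 members 40 rose, 2 fell and 2 did not pass the test, the quasi-likelihood test of edgeR with Benjamini-Hochberg adjustment over 13581 genes at 0.05. In the same fit 42% of all tested genes were called higher and 46.7% lower, or 88.7% in either direction. All XEN libraries lay above all ES libraries for 40 members and below them for 2, beside 42.4% and 47% of all tested genes. The median log2 fold change of XEN over ES was 1.63 over the members and -0.07 over all tested genes. Against a change of 2-fold (edgeR glmTreat), 29 members were called higher and 1 lower, beside 19.3% and 23.4% of all genes. Every member passed the filter on low counts and averaged at least 1.28 CPM in the group where it was lower. In bulk RNA, more cells that express a gene and more RNA per cell cannot be told apart.

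The members together took 2.03%, 2.04% and 2.08% of the counts of XEN libraries A, B and C, against 0.623%, 0.63% and 0.635% of ES libraries A, B and C. The share was 3.25-fold larger in XEN cells, and the groups lay far apart compared with their spread. By class the ratio ranged from 2.18 to 3.92. The share of the disulfide isomerases was 0.529% ± 0.012 in XEN and 0.135% ± 0.0024 in ES cells (SD, n = 3 each), a ratio of 3.92. For the folding chaperones the ratio was 3.36, with 1.22% ± 0.014 in XEN and 0.363% ± 0.0044 in ES cells, and for the stress sensors 2.77, with 0.0602% ± 0.0012 in XEN and 0.0217% ± 0.00043 in ES cells. The degradation genes had the lowest ratio of the 4 classes, 2.18, at 0.239% ± 0.0023 in XEN and 0.11% ± 0.0014 in ES cells.

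**Figure D1:**
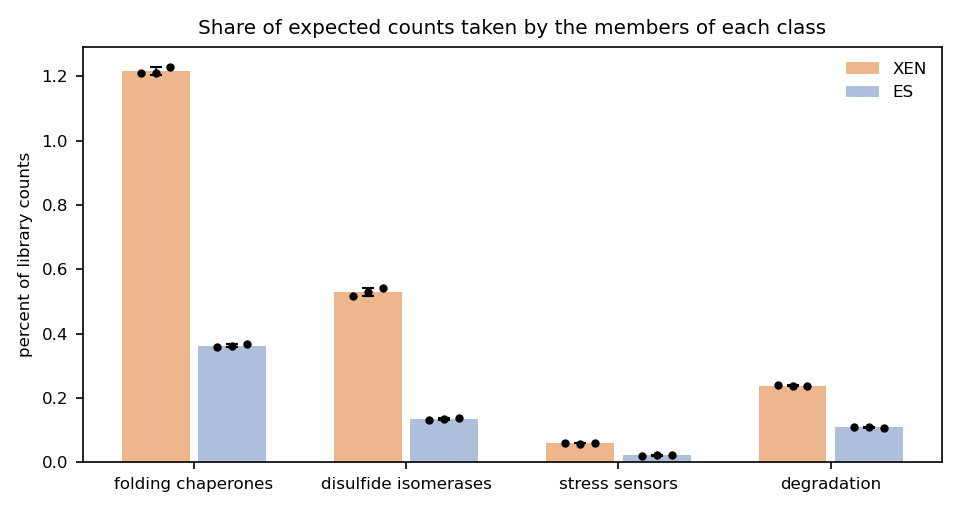
Percent of each library's expected counts taken by the members of a class, with XEN (orange) left of ES (blue). Bars are means, whiskers SDs and points the 3 libraries; the disulfide isomerases reach 0.529% in XEN and 0.135% in ES cells.

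Per transcript length, measured by the authors' FPKM (fragments scaled for transcript length and library depth), 40 of the 44 members stood in a higher place in the order of all genes in XEN cells than in ES cells. The other 4 stood lower in XEN cells: Dnajb9 in place 4893 in XEN and 4707 in ES cells, Atf6b in place 3816 in XEN and 3506 in ES cells, Fkbp10 in place 11185 in XEN and 10053 in ES cells, and Derl3 in place 9621 in XEN and 9235 in ES cells. In XEN cells 3 members were among the 100 genes with the highest FPKM and 17 among the first 1000. In ES cells 0 were among the first 100 and 8 among the first 1000. Calr was in place 21 in XEN and 195 in ES cells, and Hsp90b1 in place 45 in XEN and 225 in ES cells. Pdia3 was in place 84 in XEN and 305 in ES cells, and Hspa5 in place 107 in XEN and 420 in ES cells.

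Folding chaperones were led by the abundant lectin and heat shock family members. Calr (gene 12317, chromosome 8) encodes calreticulin, the soluble lectin chaperone that also stores calcium. It had 1688, 1747 and 1849 FPKM in the XEN libraries, against 348, 354 and 368 FPKM in the ES libraries. Its log2 fold change was 2.43 ± 0.05 (SE; edgeR adjusted p = 8.05e-22), with no overlap of the groups. Hsp90b1 (gene 22027, chromosome 10), the ER member of the Hsp90 family, had 1217, 1195 and 1231 FPKM in the XEN libraries, against 304, 308 and 303 FPKM in the ES libraries, a log2 fold change of 2.12 ± 0.02 (edgeR adjusted p = 9.09e-22). Hspa5 (gene 14828, chromosome 2), which encodes BiP, had 779, 757 and 748 FPKM in the XEN libraries, against 174, 175 and 178 FPKM in the ES libraries. Its log2 fold change was 2.24 ± 0.02 (edgeR adjusted p = 4.73e-22), and again the groups did not overlap. Canx, the membrane-bound lectin chaperone, averaged 269 FPKM in XEN and 206 FPKM in ES cells, a log2 fold change of 0.52 ± 0.03 that was smaller than that of its soluble relative.

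The J proteins, which pass clients to BiP and stimulate its ATPase, differed widely among themselves. Dnajc3 (gene 100037258, chromosome 14), a lumenal J protein also known as P58IPK, changed most of all 44 members. It had 62.6, 61.9 and 60.8 FPKM in the XEN libraries, against 8.06, 8.34 and 8.55 FPKM in the ES libraries, a log2 fold change of 3.02 ± 0.03 (edgeR adjusted p = 1.27e-23). Dnajb11 (gene 67838, chromosome 16), which binds unfolded chains together with BiP, had 199.5, 206 and 204 FPKM in the XEN libraries, against 37.5, 39.7 and 38.6 FPKM in the ES libraries (log2 fold change 2.52 ± 0.03, edgeR adjusted p = 1.11e-22). For both genes every XEN library lay above every ES library by a wide margin. Dnajc10, a J protein that also reduces disulfides, averaged 108 FPKM in XEN and 23.8 FPKM in ES cells (log2 fold change 2.32 ± 0.02, given in brackets with its SE from here on), and the membrane J protein Dnajc1 averaged 6.01 FPKM in XEN and 3.02 FPKM in ES cells (1.12 ± 0.03).

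Dnajb9 (gene 27362, chromosome 12), the J protein ERdj4 that is known as a target of spliced Xbp1 and as a repressor of Ern1, stood apart. It had 14.4, 15.7 and 15.3 FPKM in the XEN libraries, against 15.4, 16.6 and 17.3 FPKM in the ES libraries. The groups overlapped in CPM, and the log2 fold change of 0.01 ± 0.06 did not pass (edgeR adjusted p = 0.879). With upper-quartile scaling, under which the median of all genes moved by -0.147, its log2 fold change was -0.14. Sil1, a nucleotide exchange factor of BiP, averaged 11.3 FPKM in XEN and 9.67 FPKM in ES cells and rose by a log2 fold change of 0.35 ± 0.06. Hyou1, the large Hsp70 relative that serves BiP in the same way, averaged 146 FPKM in XEN and 54.4 FPKM in ES cells (1.56 ± 0.03).

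Of the other chaperones, Hspa13, an Hsp70-type protein of microsomes, averaged 35.4 FPKM in XEN and 9.16 FPKM in ES cells and rose by a log2 fold change of 2.08 ± 0.05. Manf, a small ER-resident and secreted protein that binds BiP, averaged 137 FPKM in XEN and 42.6 FPKM in ES cells (1.82 ± 0.04). Creld2, an ER stress-inducible protein with EGF-like repeats, averaged 79.4 FPKM in XEN and 30.2 FPKM in ES cells (1.52 ± 0.03), and Sdf2l1, which forms a complex with Dnajb11, averaged 45.7 FPKM in XEN and 18.3 FPKM in ES cells (1.45 ± 0.12). Ppib, the proline isomerase cyclophilin B that acts on collagen, averaged 394 FPKM in XEN and 202 FPKM in ES cells (1.09 ± 0.04). Fkbp10 (gene 14230, chromosome 11), another proline isomerase of collagen folding, was the only chaperone of the list that fell. It had 0.520, 0.570 and 0.380 FPKM in the XEN libraries, against 2.11, 2.15 and 2.18 FPKM in the ES libraries, a log2 fold change of -2.00 ± 0.17 (edgeR adjusted p = 6.04e-10), and stayed low in either cell type. In all, 15 of the 17 chaperones rose, 1 fell and 1 did not pass, beside 42% higher and 46.7% lower of all tested genes. The median log2 fold change of the chaperones was 1.56.

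**Figure D2:**
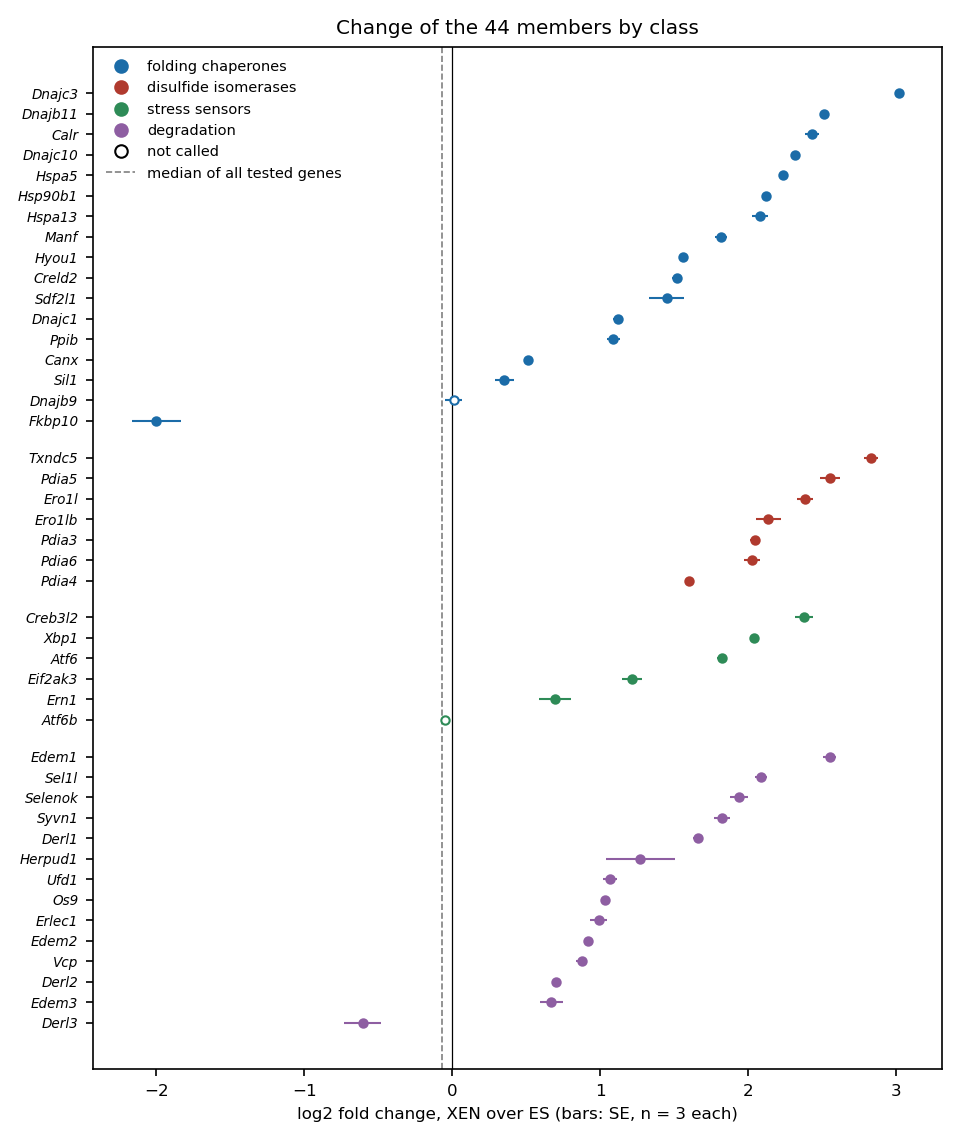
Log2 fold change of XEN over ES for each member, ordered within its class; bars are SEs (n = 3 each), open circles did not pass the edgeR test, and the dashed line is the median of all tested genes, -0.07. Dnajc3 is the rightmost at 3.02 and Fkbp10 the leftmost at -2.00.

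A known switch of many of these genes is the ER stress response element (ERSE), which has the letters CCAAT and CCACG with 9 free bases between them and which the products of Atf6 and Xbp1 bind together with the factor NF-Y. It was searched on either strand of the RefSeq promoter windows (GRCm38.p6), which run from 250 bases before to 50 bases after a gene's start. Of the 44 members 36 had a window, and 10 of these, or 27.8%, held an ERSE. No window was used for Hspa13, Hyou1, Sil1, Manf, Fkbp10, Atf6, Derl1 and Erlec1. Over all tested genes with a window it was in 19 of 10337, or 0.184%, so that members made up 10 of the 19. Of the 36 members with a window 26 held none. The element was already known as a switch of many of these genes, so its larger share among them is no independent result. The matches are shown here because they were more frequent among member windows than among those of all tested genes. Each is read from CCAAT to CCACG, with these ends in capitals and the spacer in lower case, and they are ordered by the gene's fold change. The strand is the strand of the genome on which the match reads.
Dnajc3, chr14:118937827-118937845, plus strand, bases -105 to -87 from the start: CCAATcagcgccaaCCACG
Calr, chr8:84847075-84847093, plus strand, bases -162 to -144 from the start: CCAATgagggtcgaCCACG
Hspa5, chr2:34772025-34772043, plus strand, bases -65 to -47 from the start: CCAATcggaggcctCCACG
Ero1lb, chr13:12565682-12565700, minus strand, bases -201 to -183 from the start: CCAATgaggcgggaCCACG
Hsp90b1, chr10:86705533-86705551, plus strand, bases -107 to -89 from the start: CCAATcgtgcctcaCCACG
Hsp90b1, chr10:86705638-86705656, minus strand, bases -212 to -194 from the start: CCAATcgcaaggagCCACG
Pdia6, chr12:17266491-17266509, plus strand, bases -98 to -80 from the start: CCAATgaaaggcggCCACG
Syvn1, chr19:6046532-6046550, plus strand, bases -44 to -26 from the start: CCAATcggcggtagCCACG
Creld2, chr15:88819520-88819538, minus strand, bases -126 to -108 from the start: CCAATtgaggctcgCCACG
Canx, chr11:50325800-50325818, minus strand, bases -145 to -127 from the start: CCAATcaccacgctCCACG
Derl3, chr10:75893242-75893260, minus strand, bases -156 to -138 from the start: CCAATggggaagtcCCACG
The spacers differ from gene to gene, as do the distances from the start. Hsp90b1 held a pair of sites on opposite strands.

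Of the 10 members with an ERSE 9 rose and 1 fell. Their log2 fold changes lay between -0.60 and 3.02, around a median of 2.08. Ero1lb is counted here at 2.14. With an unnamed gene model summed in, as described below, it was 0.98, which would lower this median. Of the 26 with a window and no ERSE 24 rose, with a median of 1.36 and values from -0.05 to 2.83. Over all tested genes 42% were called higher. The 26 include members with other elements described below: Txndc5 at 2.83, Dnajb11 at 2.52, Herpud1 at 1.27 and Vcp at 0.88. The sets also differ in their mix of classes, and the difference between them was not tested. The member with an ERSE that fell was Derl3. Its upstream bases are given beside those of Hspa5, whose promoter is the textbook example, and Dnajc3, the member that changed most, with the ERSE in capitals on the strand of the gene. In Derl3 the site runs on the opposite strand.
Hspa5, chr2:34771840-34772089, plus strand: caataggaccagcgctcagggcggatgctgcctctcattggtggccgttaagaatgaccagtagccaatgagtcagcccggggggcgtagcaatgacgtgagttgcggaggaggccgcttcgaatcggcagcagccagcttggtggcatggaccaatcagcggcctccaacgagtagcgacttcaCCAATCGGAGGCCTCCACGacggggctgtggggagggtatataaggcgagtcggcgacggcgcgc
Dnajc3, chr14:118937682-118937931, plus strand: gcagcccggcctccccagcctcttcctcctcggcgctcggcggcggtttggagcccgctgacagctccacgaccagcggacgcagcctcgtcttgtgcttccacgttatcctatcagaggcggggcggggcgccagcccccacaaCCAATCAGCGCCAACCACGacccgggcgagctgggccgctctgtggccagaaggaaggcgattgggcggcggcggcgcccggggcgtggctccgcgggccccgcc
Derl3, chr10:75893148-75893397, plus strand: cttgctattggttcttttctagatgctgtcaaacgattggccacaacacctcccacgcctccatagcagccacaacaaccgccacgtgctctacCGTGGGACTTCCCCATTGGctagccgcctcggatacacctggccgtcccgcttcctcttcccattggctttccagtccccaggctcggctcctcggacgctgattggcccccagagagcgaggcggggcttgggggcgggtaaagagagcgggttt
All 3 stretches end at the base before the start, and the ERSE lies at bases -65 to -47 in Hspa5, -105 to -87 in Dnajc3 and -156 to -138 in Derl3.

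Of the 9 other tested genes with an ERSE 1 rose and 8 fell, beside 42% and 46.7% of all tested genes, around a median log2 fold change of -3.31. With 9 genes and no test this is a description only. The median was also -3.31 with Tdrd9, which had 0 counts in every XEN library, set at its bound against 3 counts over the group. The 1 that rose was Alg12, a mannosyltransferase gene whose window holds the same site as that of Creld2, and the 8 that fell included Calr4, a relative of calreticulin, at 0.0321 CPM in XEN and 6.65 CPM in ES cells, and Zfp57 at 43.5 CPM in XEN and 431 CPM in ES cells. The second element, ERSE-II, has ATTGG and CCACG with 1 free base between them. It was found for 2 of the 36 members with a window, Herpud1 and Dnajb11, or 5.56%. Of the 10337 tested genes with a window 8 held it, or 0.0774%. The element TGACGTGG, known as UPRE, was in 2 member windows, Vcp and Txndc5, and in 0.996% of tested genes. The short motif CCACG, which lies within the ERSE and ERSE-II, was in 29 of the 36 members and in 52.6% of tested genes. A match is a string in the window and no measure of binding.

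**Figure D3:**
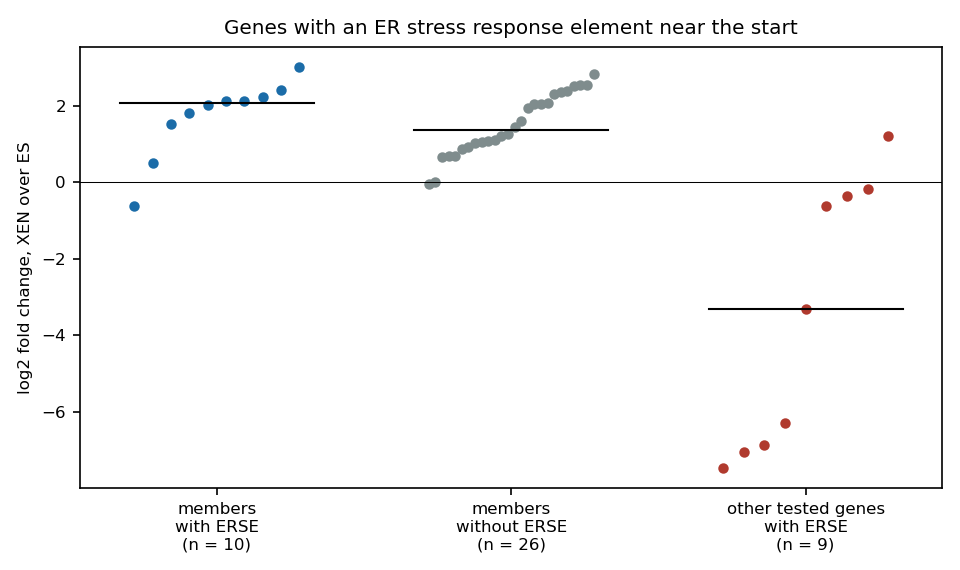
Log2 fold change of XEN over ES for members with an ERSE in their promoter window (n = 10), members with a window and no ERSE (n = 26) and all other tested genes with an ERSE (n = 9); points are genes and lines medians, at 2.08, 1.36 and -3.31. Tdrd9, at 0 counts in XEN libraries, is drawn at its fitted value, which depends on the prior count. Ero1lb is drawn without the unnamed gene model described in the text.

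All 7 disulfide isomerases and oxidases rose, each by more than 2-fold in the glmTreat test. Of all tested genes 42% were called higher and 19.3% higher by more than 2-fold. The median log2 fold change of the 7 was 2.14 and none was under 1.60. These calls and values leave aside the unnamed gene model described below with Ero1lb. Pdia3 (gene 14827, chromosome 2), the isomerase that works with calnexin and calreticulin, was the most abundant of them. It had 891, 901 and 948 FPKM in the XEN libraries, against 237, 241 and 246 FPKM in the ES libraries, a log2 fold change of 2.05 ± 0.03 (edgeR adjusted p = 4.27e-21). Txndc5 (gene 105245, chromosome 13), an isomerase with several thioredoxin domains, changed most in this class. It had 203, 209.7 and 214 FPKM in the XEN libraries, against 30.2, 32.8 and 33.1 FPKM in the ES libraries (log2 fold change 2.83 ± 0.05, edgeR adjusted p = 7.86e-23). Pdia5 (gene 72599, chromosome 16), an isomerase reported to act on Atf6, had 97.2, 103 and 110.2 FPKM in the XEN libraries, against 19.2, 20.5 and 18.3 FPKM in the ES libraries (log2 fold change 2.56 ± 0.07, edgeR adjusted p = 2.74e-20). In each of these the XEN libraries lay well above the ES libraries. Pdia6 averaged 489 FPKM in XEN and 131 FPKM in ES cells (2.03 ± 0.05) and Pdia4, a larger isomerase, 223 FPKM in XEN and 80.4 FPKM in ES cells (1.60 ± 0.02).

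The oxidases that pass electrons from the isomerases to oxygen changed alike in direction but not in level. Ero1l (gene 50527, chromosome 14), the widely expressed form, had 174, 161 and 154 FPKM in the XEN libraries, against 33.5, 34.5 and 34.5 FPKM in the ES libraries, a log2 fold change of 2.38 ± 0.06 (edgeR adjusted p = 4.53e-21). Ero1lb (gene 67475, chromosome 13), known best from the pancreas, had 2.31, 2.70 and 2.24 FPKM in the XEN libraries, against 0.630, 0.580 and 0.580 FPKM in the ES libraries (log2 fold change 2.14 ± 0.09, edgeR adjusted p = 1.27e-12). It was thus far below Ero1l per length in either cell type. An unnamed gene model in the authors' tables that carries the same orthology term as Ero1lb had 0, 0.0466 and 0 CPM in the XEN libraries, against 3.36, 2.70 and 2.78 CPM in the ES libraries. With its counts summed into Ero1lb, an alternative chosen after the data were seen, the log2 fold change of Ero1lb was 0.98 (edgeR adjusted p = 6e-08). That is below the 1.60 given above as the lowest of the class, whose median of 2.14 was the value of Ero1lb itself. The 2-fold test was not repeated with the sum, but a log2 fold change of 0.98 is a change of less than 2-fold. Ero1lb thus counts among the 29 members called higher by more than 2-fold only without the sum.

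**Figure D4:**
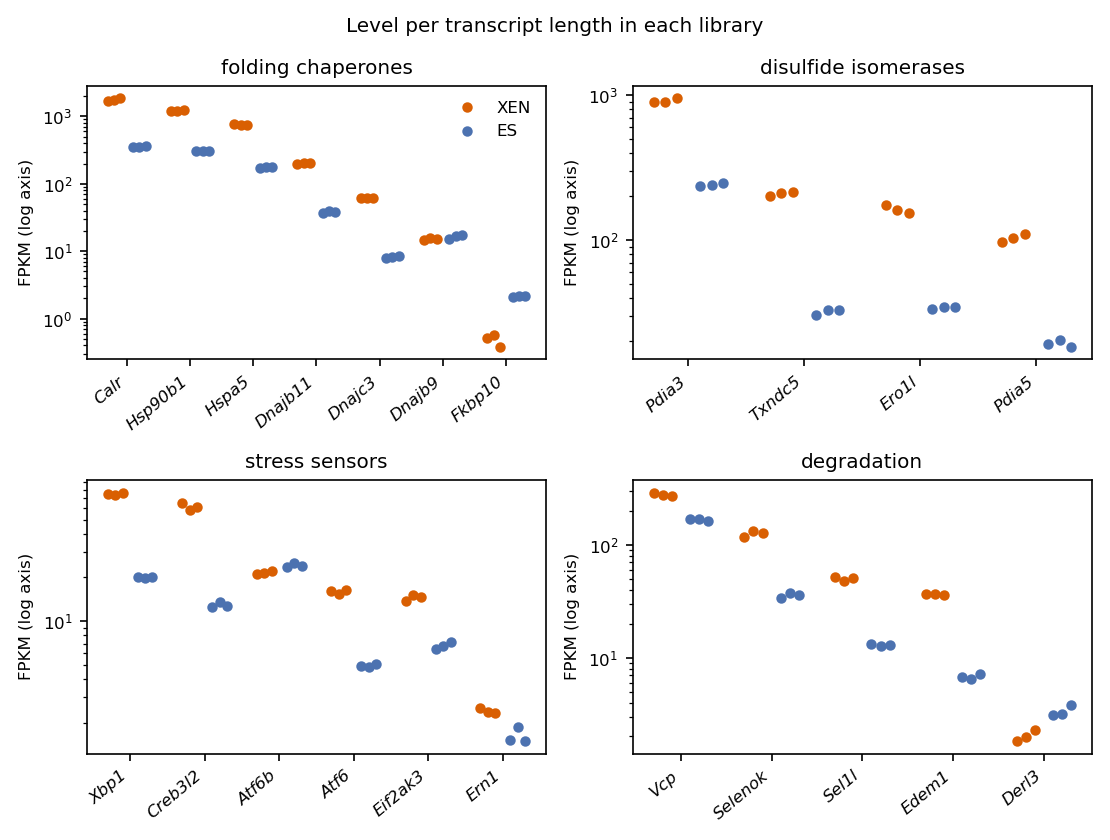
FPKM in each library (log axis) of the members named by rule, in 4 panels by class, with XEN (orange) left of ES (blue); points are libraries A, B and C. Groups overlap for Dnajb9, while Atf6b, Fkbp10 and Derl3 lie lower in XEN and the others higher.

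Among the sensors and their transcription factors the log2 fold changes ranged from -0.05 to 2.38. Xbp1 (gene 22433, chromosome 11), the factor made by Ern1-dependent splicing, had 75.1, 74.03 and 76.6 FPKM in the XEN libraries, against 20.2, 19.8 and 20.1 FPKM in the ES libraries. Its log2 fold change was 2.04 ± 0.02 (edgeR adjusted p = 1.16e-20). Atf6 (gene 226641, chromosome 1), a sensor and factor in 1 protein, had 16.01, 15.4 and 16.4 FPKM in the XEN libraries, against 4.88, 4.83 and 5.05 FPKM in the ES libraries (log2 fold change 1.83 ± 0.04, edgeR adjusted p = 2.49e-19). The groups did not overlap for either gene. The values are per gene, so spliced and unspliced Xbp1 messages are counted together, and the cutting of Atf6 protein is not measured by RNA.

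Ern1 (gene 78943, chromosome 11), the kinase and RNase that splices Xbp1, was scarce and had a smaller fold change. It had 2.52, 2.36 and 2.32 FPKM in the XEN libraries, against 1.52, 1.86 and 1.49 FPKM in the ES libraries (log2 fold change 0.69 ± 0.11, edgeR adjusted p = 6.53e-06). Eif2ak3 (gene 13666, chromosome 6), the kinase PERK, had 13.8, 15.2 and 14.6 FPKM in the XEN libraries, against 6.37, 6.76 and 7.22 FPKM in the ES libraries (log2 fold change 1.21 ± 0.07, edgeR adjusted p = 9.64e-15). Creb3l2 (gene 208647, chromosome 6), a membrane-bound factor related to Atf6 that drives secretory genes in cartilage, changed most in this class. It had 64.97, 57.97 and 61.3 FPKM in the XEN libraries, against 12.5, 13.5 and 12.7 FPKM in the ES libraries (log2 fold change 2.38 ± 0.06, edgeR adjusted p = 2.05e-20).

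Atf6b (gene 12915, chromosome 17), the close relative of Atf6, did not pass the test. It had 20.99, 21.4 and 21.98 FPKM in the XEN libraries, against 23.7, 25.02 and 24 FPKM in the ES libraries. Its CPM, scaled by the TMM factors, overlapped between the groups (log2 fold change -0.05 ± 0.03, edgeR adjusted p = 0.338). With upper-quartile scaling its log2 fold change was -0.19 (edgeR adjusted p = 0.000525), against a shift of -0.147 in the median of all genes. Per length, Atf6b averaged 21.4 FPKM in XEN and 24.2 FPKM in ES cells and Atf6 15.9 FPKM in XEN and 4.92 FPKM in ES cells, so that Atf6b stood above Atf6 in either cell type and by less in XEN cells. Of the 6 sensors and factors 5 rose and 1 did not pass, with a median log2 fold change of 1.52. Of all tested genes 42% were called higher.

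In ERAD 13 of 14 members rose and 1 fell, beside 42% higher and 46.7% lower of all tested genes. Only 5 were called higher by more than 2-fold by glmTreat, beside 19.3% of all tested genes. The median log2 fold change of the class was 1.05. The genes with the larger changes included parts of the Hrd1 complex and a mannosidase-like protein. Edem1 (gene 192193, chromosome 6), which helps to mark misfolded glycoproteins, had 36.7, 36.8 and 36.1 FPKM in the XEN libraries, against 6.73, 6.52 and 7.21 FPKM in the ES libraries, a log2 fold change of 2.55 ± 0.04 (edgeR adjusted p = 6.67e-22). Sel1l (gene 20338, chromosome 12), the adaptor of the ubiquitin ligase, had 51.5, 48.02 and 51.1 FPKM in the XEN libraries, against 13.2, 12.6 and 13.01 FPKM in the ES libraries (log2 fold change 2.09 ± 0.04, edgeR adjusted p = 6.53e-21). Syvn1, the ligase Hrd1 itself, averaged 60.7 FPKM in XEN and 18.7 FPKM in ES cells (1.83 ± 0.05), and Derl1, a channel protein of the complex, 53.4 FPKM in XEN and 18.5 FPKM in ES cells (1.66 ± 0.03). Selenok (gene 80795, chromosome 14), a small selenoprotein that binds Vcp and derlins, had 118, 132 and 127 FPKM in the XEN libraries, against 33.8, 37.2 and 36.1 FPKM in the ES libraries (log2 fold change 1.94 ± 0.06, edgeR adjusted p = 5.46e-19). None of these overlapped between the groups.

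The relatives and partners of these genes had smaller fold changes. Edem2, a further member of the Edem family, averaged 27 FPKM in XEN and 15.6 FPKM in ES cells (log2 fold change 0.92 ± 0.02), and Edem3 averaged 14.2 FPKM in XEN and 9.81 FPKM in ES cells (0.67 ± 0.08). Derl2 averaged 13.5 FPKM in XEN and 9.09 FPKM in ES cells (0.70 ± 0.03). Of the lectins that read trimmed sugars, Os9 averaged 22.5 FPKM in XEN and 12.01 FPKM in ES cells (1.04 ± 0.03) and Erlec1 averaged 16.9 FPKM in XEN and 9.28 FPKM in ES cells (0.99 ± 0.06). Vcp (gene 269523, chromosome 4), the ATPase that pulls substrates from the membrane and the most abundant member of the class, had 291, 279 and 271 FPKM in the XEN libraries, against 168, 171 and 163 FPKM in the ES libraries (log2 fold change 0.88 ± 0.04, edgeR adjusted p = 9.62e-15). Its cofactor Ufd1 averaged 56.3 FPKM in XEN and 29.3 FPKM in ES cells (1.07 ± 0.05). Derl3 (gene 70377, chromosome 10), the scarcest member of the class, fell. It had 1.82, 1.99 and 2.30 FPKM in the XEN libraries, against 3.13, 3.19 and 3.79 FPKM in the ES libraries (log2 fold change -0.60 ± 0.12, edgeR adjusted p = 0.00138).

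Herpud1 (gene 64209, chromosome 8), a membrane protein of the Hrd1 complex and a classic ER stress gene, was the least even among XEN libraries. It had 21.98, 30.3 and 37.6 FPKM in the XEN libraries, against 13.9, 12.4 and 14.3 FPKM in the ES libraries, a log2 fold change of 1.27 ± 0.23 (edgeR adjusted p = 0.00654). XEN library A was the lowest and C the highest, and all 3 were above the ES libraries. Its coefficient of variation was 26% in XEN and 7.4% in ES cells, whereas the median over the members was 3.4% in XEN and 3.1% in ES cells, and that over all tested genes 5.8% in XEN and 4.6% in ES cells. In a comparison that was not planned, library A was also the lowest XEN library and C the highest for Atf4, with 128, 165 and 194 FPKM. The same held for the stress-induced genes Ddit3, with 11.4, 14.6 and 15.7 FPKM, and Trib3, with 2.88, 5.01 and 7.14 FPKM. Calr had this order too, at 1688, 1747 and 1849 FPKM. Other genes did not: A was the highest for Hspa5, at 779, 757 and 748 FPKM, and Ero1l, at 174, 161 and 154 FPKM. It was also the highest for Ppp1r15a, at 24.5, 23.4 and 23.8 FPKM. A shared source of the order was not tested. Without XEN library A the log2 fold change of Herpud1 was 1.45, and without XEN library C it was 1.08.

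Related members were set against each other in 9 pairs, as the log2 ratio of CPM + 1 in each library, and the change of the ratio was tested by a two-sided exact permutation test, for which p = 0.1 is the smallest value with 3 against 3 libraries. In 8 of the 9 pairs the groups did not overlap, each with an exact permutation p = 0.1 (0.113 adjusted over the pairs). Such separation was common: of all tested single genes 42.4% had every XEN library above and 47% every XEN library below the ES libraries. No share was taken over ratios of other genes, so the count of pairs is a description and the sizes of the changes are given. The ratio of Calr to Canx was 1.43, 1.52 and 1.62 in the XEN libraries, against -0.41, -0.40 and -0.37 in the ES libraries, a change of 1.91 ± 0.06 (SE). The ratio of Atf6 to Atf6b was 1.16, 1.08 and 1.13 in the XEN libraries, against -0.69, -0.79 and -0.67 in the ES libraries, a change of 1.84 ± 0.04. The ratio of Edem1 changed by 1.63 ± 0.06 against Edem2 and by 1.86 ± 0.08 against Edem3. That of Derl1 to Derl2 changed by 0.96 ± 0.06.

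The widest change was between J proteins. The ratio of Dnajc3 to Dnajb9 was 3.60, 3.47 and 3.48 in the XEN libraries, against 0.58, 0.52 and 0.50 in the ES libraries, a change of 2.98 ± 0.05. Other ratios moved less. The ratio of Hsp90b1 to Hspa5 was 0.77, 0.78 and 0.84 in the XEN libraries, against 0.92, 0.93 and 0.89 in the ES libraries, a change of -0.11 ± 0.03. The ratio of the lectins Os9 and Erlec1 overlapped between the groups, with a change of 0.05 ± 0.05 (exact permutation p = 0.4). The ratio of Ero1l to Ero1lb changed by 0.61 ± 0.10, or by 0.29 with 0.1 CPM and 1.27 with 5 CPM added in place of 1, and by 1.51 with the unnamed model summed into Ero1lb.

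**Figure D5:**
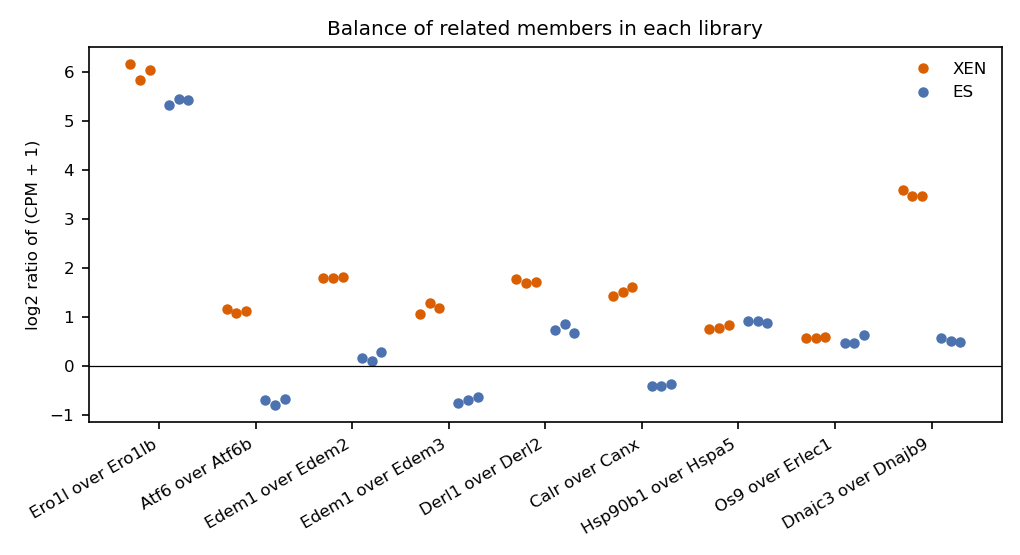
Log2 ratio of CPM + 1 of the first to the second gene of each pair, with XEN (orange) left of ES (blue); points are libraries. Transcript lengths differ, so the height of a pair is not a ratio of molecules, and only the distance between the groups is read, such as 2.98 for Dnajc3 over Dnajb9.

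Further genes of the same machinery were taken from textbook lists, also with earlier results of these data known. Of 95 listed genes 92 were found and 91 tested, of which 64 rose, 11 did not pass and 16 fell. That is 70.3% higher, beside 42% higher and 46.7% lower of all tested genes. The median log2 fold change of the further genes was 0.60. By class, 16 of 20 further chaperones, 14 of 18 disulfide enzymes, 8 of 15 stress signalling genes and 26 of 38 ERAD genes rose. In the same order, 3, 3, 4 and 6 of these classes fell. The share that rose was 53.3% in stress signalling, the nearest to the 42% of all tested genes. P4hb (gene 18453, chromosome 11), the founding disulfide isomerase and the beta subunit of prolyl hydroxylase, had the highest FPKM of them, with 1033, 1098 and 1140.2 FPKM in the XEN libraries, against 238, 246 and 256 FPKM in the ES libraries (log2 fold change 2.27 ± 0.05). Qsox1, a secreted sulfhydryl oxidase, had 22.4, 22.5 and 22.2 FPKM in the XEN libraries, against 1.58, 1.44 and 1.51 FPKM in the ES libraries (4.01 ± 0.04). Txndc11 averaged 50.9 FPKM in XEN and 6.75 FPKM in ES cells (3.04 ± 0.04). The membrane thioredoxins Tmx4 and Tmx2 fell, with log2 fold changes of -2.14 and -1.34.

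Among the further chaperones, Uggt2, a relative of the glucosyltransferase that checks glycoprotein folding, had 12.98, 11.1 and 11.1 FPKM in the XEN libraries, against 0.110, 0.220 and 0.110 FPKM in the ES libraries (6.44 ± 0.32). Of the proline isomerases, Fkbp14 averaged 12.3 FPKM in XEN and 3.54 FPKM in ES cells (1.93 ± 0.04) and Fkbp9 averaged 202 FPKM in XEN and 88.05 FPKM in ES cells (1.33 ± 0.05). Clgn, a relative of calnexin known from the testis, averaged 0.947 FPKM in XEN and 6.10 FPKM in ES cells (-2.54 ± 0.10), and Cnpy2 averaged 34.8 FPKM in XEN and 95.8 FPKM in ES cells (-1.34 ± 0.07). In stress signalling, Creb3l1 (gene 26427, chromosome 2), a membrane-bound factor close to Creb3l2 and known to drive collagen secretion in bone, had 57.4, 61.6 and 60.8 FPKM in the XEN libraries, against 1.06, 1.0 and 1.0 FPKM in the ES libraries, a log2 fold change of 6.0 ± 0.04 (edgeR adjusted p = 5.23e-25). The kinase gene Map3k5 rose by 2.05 ± 0.09.

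Also in stress signalling, Atf4 (gene 11911, chromosome 15), the factor whose translation Eif2ak3 favours, did not pass, with 128, 165 and 194 FPKM in the XEN libraries, against 214, 208 and 219.8 FPKM in the ES libraries (log2 fold change -0.26 ± 0.18, edgeR adjusted p = 0.24). Ddit3 (gene 13198, chromosome 10), which encodes CHOP, fell, with 11.4, 14.6 and 15.7 FPKM in the XEN libraries, against 34.3, 31.4 and 32.04 FPKM in the ES libraries (log2 fold change -1.12 ± 0.14, edgeR adjusted p = 2.35e-09). Trib3 (gene 228775, chromosome 2), a pseudokinase gene induced by Atf4 and CHOP, fell as well, with 2.88, 5.01 and 7.14 FPKM in the XEN libraries, against 27.8, 29 and 30.9 FPKM in the ES libraries (log2 fold change -2.42 ± 0.38, edgeR adjusted p = 0.00113). The XEN libraries lay below every ES library for Ddit3 and Trib3.

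Of the further ERAD genes, the ubiquitin ligase gene Rnf103 averaged 19.6 FPKM in XEN and 1.0 FPKM in ES cells (4.43 ± 0.06). The ligase gene Trim13 averaged 5.78 FPKM in XEN and 42.2 FPKM in ES cells (-2.79 ± 0.07), and Atxn3, which encodes a deubiquitinase, averaged 7.53 FPKM in XEN and 18.8 FPKM in ES cells (-1.25 ± 0.03). Bag6, a holdase for exported substrates and the one with the highest mean FPKM over both groups, had 72.6, 76.3 and 75.2 FPKM in the XEN libraries, against 77.4, 78.5 and 73.8 FPKM in the ES libraries and did not pass (log2 fold change 0.08 ± 0.03, edgeR adjusted p = 0.0533).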

How the data were processed

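RNA-seq libraries of 3 XEN and 3 ES cell samples were sequenced on a BGISEQ-500, per the labels. The deposited table of each library gives expected counts and FPKM per gene, as made by the authors. The submitters' processing notes name mm9, Bowtie2, RSEM and DESeq2, with no version, role or order, and the strand setting of the counting is not given in the sources used here. The tables list different numbers of genes, and a gene missing from one was taken as 0 counts there. Expected counts were used as whole numbers after rounding. Low genes were filtered with filterByExpr, scaled by TMM (factors 0.951 to 0.96 in XEN and 1.04 to 1.05 in ES libraries) and tested with the robust quasi-likelihood test of edgeR 4.0.16 in R 4.3.3, as XEN over ES, with Benjamini-Hochberg adjustment over 13581 genes at 0.05, and with glmTreat against 2-fold. The CPM of genes used each library's total multiplied by its TMM factor. Totals set the precision for low genes: on the totals of 20675311 to 22375875 counts, without the factors, 3 counts came to 0.134 to 0.145 CPM. FPKM values are the authors' and served for levels per length. No pair of libraries agreed within sampling noise (chi-square per degree of freedom of at least 2.44 within a group).

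The members and lists were chosen with earlier results of these data known. Genes named with full values were, per class, the 3 members with the largest change, the one with the highest FPKM, those against the class's direction and those not called, plus Hspa5, Hsp90b1, Xbp1, Ern1, Atf6 and Eif2ak3 and, per class of the further list, up to 2 with the largest change each way among genes averaging 5 CPM or more, and the one with the highest FPKM. The rule's result for 1 further gene is not reported here. Herpud1 and Ero1lb were given per library after their values were seen. Promoter windows are RefSeq's for GRCm38.p6, matched by gene ID, and no coordinate was taken from or converted to mm9. Counts were simulated for the 13581 tested genes of this comparison, with 50 changed genes per fold size. The filter on low counts, applied again, kept 13310 genes, and a changed gene lost there was scored as not recovered. The test recovered 23 genes at 1.2-fold, 35 at 1.5-fold, 44 at 2-fold and 45 at 4-fold. It called 22 of 13115 unchanged genes. Alternatives were other scalings and filters, leaving out each library, a replicate block, DESeq2 1.42.0 and limma 3.58.1.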

Additional observations from a re-analysis of the deposited data

How the results depend on the processing

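Of the 44 members, 42 kept their direction and call under every alternative except the 2-fold test, and 40 were called higher under each of them. The exceptions were Dnajb9 and Atf6b. Dnajb9, at 0.01 and never called, was -0.136 on the log2 scale with upper-quartile scaling, -0.123 with no composition factors, -0.007 when genes averaging under 1 CPM were dropped and -0.110 with limma-trend on FPKM, and it ranged from -0.035 to 0.042 with 1 library left out. Atf6b was called lower with upper-quartile scaling (-0.193), no composition factors (-0.179) and limma-trend (-0.168). These scalings moved the median of all genes by -0.147, -0.133 and -0.086. Against 2-fold, a stricter question by construction, 2621 genes were higher and 3175 lower, or 19.3% and 23.4% of all tested genes. In that test 1 member was lower, and of the 91 further genes of the machinery 28 were higher and 9 lower. Leaving out each library gave 5633 to 5686 genes higher, 6278 to 6432 lower, and 40 and 2 members. A replicate block by library letter gave 5682 and 6318 genes and 40 and 2 members. The letters are only shared labels: deviations of same-letter libraries correlated at 0.033, 0.008 and 0.02. Each XEN library correlated best with the ES library of its letter, but values this small were not tested and the labels name no pairing. No pair ratio changed direction. With 3 libraries a group, an exact test of 1 value cannot go below p = 0.1.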

Other observations

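A pair of further ERAD and redox genes, picked after their values were seen, was nearly silent in XEN cells. Svip, which encodes a small inhibitor of ERAD that binds Vcp, had 1 count over the XEN libraries and 548 over the ES libraries, a ratio of ES over XEN of 509 (95% Clopper-Pearson interval 91 to 20200, for counting error only). Gpx7, an ER peroxidase of the glutathione peroxidase family, had 1 count over the XEN libraries and 392 over the ES libraries, a ratio of ES over XEN of 364 (interval 65 to 14400). Txndc12, a small lumenal thioredoxin protein chosen in the same way, averaged 368 FPKM in XEN and 61.1 FPKM in ES cells.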
